A study of Mus musculus with 9 samples.

Results

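Fibroblast genes of the meninges were followed in the substantia nigra pars compacta, the main dopamine nucleus of the midbrain. The 8 genes were Col1a1, Col1a2, Dcn, Lum, Prg4, Slc22a6, Slc6a13 and Ptgds. They were taken by name from a table of 27339 genes, and all 8 were among the 14949 genes with a mean level high enough to test. They were selected on how their levels varied between these same libraries, so those levels are given as a description, and the fold changes and p-values of the 3 comparisons below are no independent support.

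RNA was sequenced in bulk from 9 libraries in 3 groups of 3. The first group came from mice given the neurotoxin MPTP and a ketogenic diet based on medium-chain triglycerides (MPTP + MCT-KD), the second from mice given MPTP without that diet (MPTP), and the last from controls (Ctrl). MPTP is converted in the brain into a toxin that the dopamine transporter carries into dopamine neurons, and a ketogenic diet is high in fat and very low in carbohydrate. The labels name no strain, age, sex, dose or duration, and do not say whether a library holds tissue of a single mouse or of several. No group given only the diet was analysed here. P-values therefore measure the spread between these libraries, which may be technical in part.

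The meninges are the membranes around the brain, and their inner layers hold fibroblasts that make the fibrous matrix of the brain surface. These cells secrete collagen and the proteoglycans that bind it, and cells of the arachnoid layer carry transporters that move organic anions and amino acids between blood and cerebrospinal fluid. Similar fibroblasts follow the larger vessels into the brain. The nigra lies near the ventral surface of the midbrain.

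Total counts ranged from 33.2 to 40.0 M per library (M for the SI prefix mega). Genes of the dissected nucleus were present throughout. Th, the rate-limiting enzyme of dopamine synthesis, stood at 24.7 to 40.0 FPKM in MPTP + MCT-KD, 28.3 to 36.2 in MPTP and 36.3 to 56.1 in Ctrl (FPKM, fragments per kilobase of gene per M fragments mapped). Slc6a3, the dopamine transporter, stood at 23.4 to 38.9 FPKM in MPTP + MCT-KD, 26.2 to 34.3 in MPTP and 36.1 to 49.8 in Ctrl. The library Ctrl 3 stood apart from the rest by its choroid plexus genes: Ttr, the main secreted protein of that tissue, was at 865 FPKM there and at 1.70 to 54.8 FPKM in the other libraries. Results that rest on Ctrl 3 are given below with and without it.

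Promoter windows of the members are shown as a description, and whether they bear on the levels was not tested. Windows from RefSeq (GRCm38.p6) are given for 4 of the 8 members, and Prg4, Dcn, Col1a1 and Lum are named only. Each line holds the 250 bases before the RefSeq start site, read 5′ to 3′ on the strand of the gene. Capitals mark matches to the motif CCAAT on either strand, where a match on the opposite strand reads ATTGG.
Slc22a6, chr19:8617746-8617995, plus strand: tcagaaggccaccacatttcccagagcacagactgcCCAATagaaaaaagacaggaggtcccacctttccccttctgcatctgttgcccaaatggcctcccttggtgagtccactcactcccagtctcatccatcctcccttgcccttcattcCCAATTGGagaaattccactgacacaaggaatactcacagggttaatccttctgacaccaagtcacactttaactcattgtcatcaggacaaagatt
Slc6a13, chr6:121300038-121300287, plus strand: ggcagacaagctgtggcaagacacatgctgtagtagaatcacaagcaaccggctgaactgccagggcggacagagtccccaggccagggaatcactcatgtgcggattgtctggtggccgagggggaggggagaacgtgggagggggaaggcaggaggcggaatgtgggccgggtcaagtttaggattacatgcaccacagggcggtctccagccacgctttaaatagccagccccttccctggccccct
Col1a2, chr6:4505368-4505617, plus strand: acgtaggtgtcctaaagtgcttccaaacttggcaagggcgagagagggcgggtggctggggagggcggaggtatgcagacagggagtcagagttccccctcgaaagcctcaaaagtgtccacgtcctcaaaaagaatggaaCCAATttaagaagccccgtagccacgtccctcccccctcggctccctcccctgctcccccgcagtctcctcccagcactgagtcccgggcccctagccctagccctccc
Ptgds, chr2:25469750-25469999, minus strand: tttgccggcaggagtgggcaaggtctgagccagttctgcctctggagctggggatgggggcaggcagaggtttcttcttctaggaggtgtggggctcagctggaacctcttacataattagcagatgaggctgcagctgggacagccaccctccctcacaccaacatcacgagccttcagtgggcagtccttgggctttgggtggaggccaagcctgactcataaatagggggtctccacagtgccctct

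Slc22a6 held 3 matches to CCAAT, of which the first base lay 214, 97 and 94 bases before the start. The last pair overlaps, since the letters CCAATTGG read as the motif on both strands. Col1a2 held 1 match, 109 bases before the start. Among 32851 RefSeq windows of the same 250 bases, 33.8% held CCAAT on either strand. TATAAA, searched likewise and held by 12.4% of windows, and GTAAANA, a core of forkhead sites held by 10.9%, had no match in these 4 windows. A match describes letters in a window and not a bound site. For Slc6a13 the table held 3 windows, and the sequence is that of the start nearest to the annotated start of the gene. GENCODE M21 places the gene start of Slc6a13, Col1a2 and Ptgds further upstream, so their windows lie partly (Slc6a13) or wholly inside the annotated gene.

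The type I collagen chains came first among the matrix genes. Col1a1 (chr11:94936224-94953042) encodes the alpha 1 chain of type I collagen, the main tensile fibre of connective tissue. Its level was 1.45, 2.25 and 3.07 FPKM in MPTP + MCT-KD 1, 2 and 3, then 1.17, 1.20 and 1.88 in MPTP 1, 2 and 3, and 1.77, 1.89 and 1.63 in Ctrl 1, 2 and 3. The 3 Ctrl libraries were close together and the MPTP + MCT-KD libraries were spread most, with both extremes of the set belonging to MPTP 1 and MPTP + MCT-KD 3. Col1a2 (chr6:4504814-4541544), the partner chain of the same fibre, stood at 2.79, 5.41 and 5.95 FPKM in MPTP + MCT-KD, at 2.01, 2.63 and 4.85 in MPTP, and at 5.63, 3.90 and 3.83 in Ctrl, in the order of replicates 1 to 3 as in all sentences of this kind. MPTP 1, MPTP 2 and MPTP + MCT-KD 1 were the lowest 3 libraries for both chains.

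The ratio of the chains within a library ranged 1.85-fold, against 2.64-fold for the FPKM of Col1a1 and 2.97-fold for that of Col1a2. Col1a2 over Col1a1, per length, was 1.72 to 3.18 with a median of 2.19 over the 9 libraries. The lowest ratio was in MPTP 1 and the highest in Ctrl 1.

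Dcn (chr10:97479609-97518143) encodes decorin, a small leucine-rich proteoglycan that coats collagen fibrils. Its level was 7.50, 11.3 and 16.8 FPKM in MPTP + MCT-KD, 6.26, 6.61 and 11.0 in MPTP, and 12.2, 10.7 and 10.3 in Ctrl. Lum, its neighbour 46984 bases downstream on the same strand (chr10:97565128-97572703), encodes lumican, a proteoglycan that regulates fibril thickness. Lum was at 0.393, 1.16 and 1.88 FPKM in MPTP + MCT-KD, 0.478, 0.397 and 0.949 in MPTP, and 1.17, 0.894 and 2.01 in Ctrl. The lowest 3 libraries were the same for both genes, whereas Ctrl 3 was the highest of all 9 for Lum and in the middle of the range for Dcn. The ratio of Lum to Dcn was 0.0524 to 0.112 in 8 libraries and 0.196 in Ctrl 3. The next family members on that stretch of chromosome 10 were scarce. Kera was listed at 0 in every library, and Epyc was at 0.069 to 0.358 FPKM.

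Prg4 (chr1:150449412-150466165, minus strand) encodes lubricin, a mucin-like lubricant of joints and of other gliding surfaces. It was at 0.143, 1.97 and 1.71 FPKM in MPTP + MCT-KD, 0.191, 0.249 and 1.20 in MPTP, and 2.28, 2.72 and 0.290 in Ctrl. Of the 8 genes it spanned the widest range, and its 4 low libraries lay at or below 0.290 FPKM while the other 5 lay at or above 1.20. The low values rest on few reads: the count was 23 in MPTP + MCT-KD 1 (95% Poisson interval 14.6 to 34.5, counting error only) and 319 in Ctrl 2 (285 to 356). Prg4 overlaps the opposite-strand gene Tpr by 524 bases. Whether reads were assigned by strand is not stated in the sources used here, so reads from that stretch cannot be told apart. Tpr itself was steady, at 14.4 to 16.6 FPKM. The transcript length implied by count and FPKM also varied 1.53-fold for Prg4, against at most 1.03-fold for the other 7 genes, so its FPKM range of 19.1-fold was 13.1-fold in CPM (counts per M counts).

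**Figure D1:**
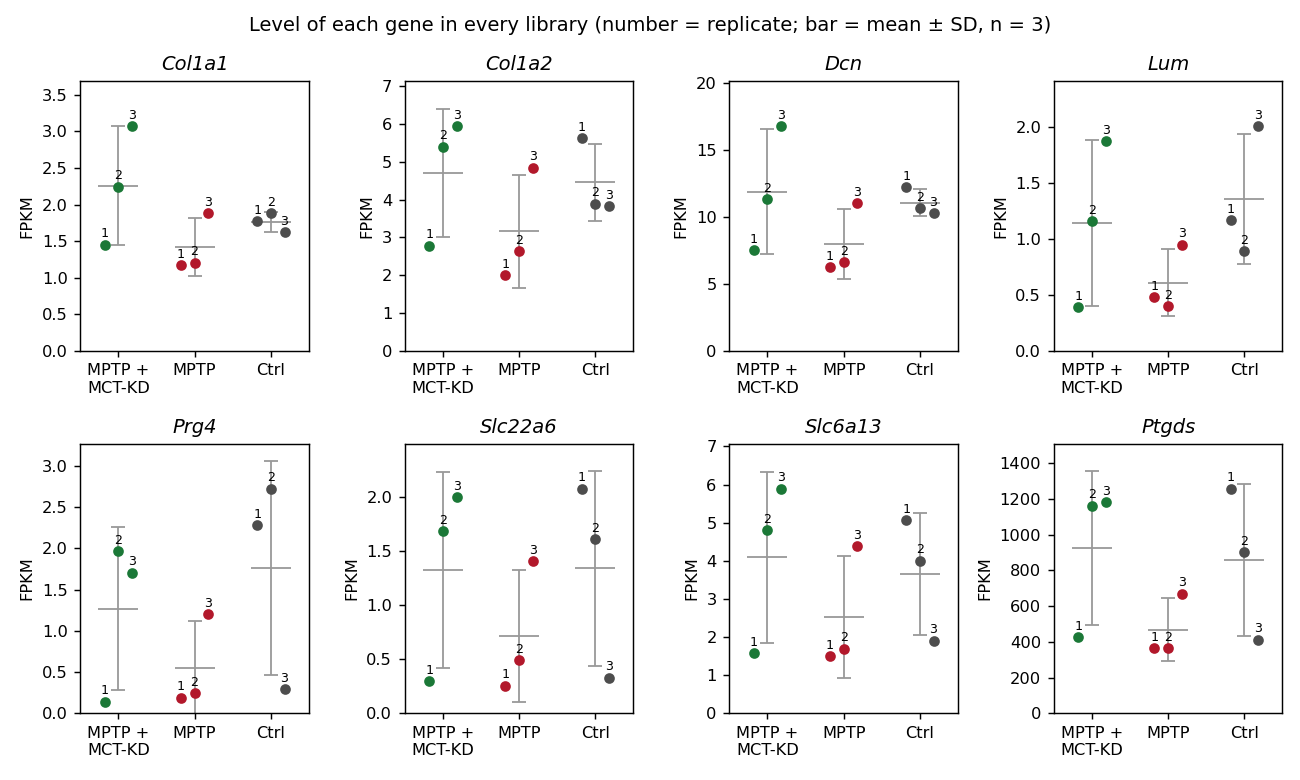
Level of each of the 8 genes (y axis, FPKM) in every library by group (x axis), with the replicate number above each point and the mean ± SD of 3 libraries as grey bars, drawn down to 0 at most. MPTP + MCT-KD 1, MPTP 1 and MPTP 2 were low for every gene, and Ctrl 3 was low for Prg4, Slc22a6, Slc6a13 and Ptgds and high for Lum.

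Of the transporters, Slc22a6 (chr19:8618039-8628299) encodes OAT1, which takes up organic anions in exchange for dicarboxylates and is best known from the kidney. Its level was 0.295, 1.69 and 1.999 FPKM in MPTP + MCT-KD, 0.256, 0.489 and 1.41 in MPTP, and 2.08, 1.61 and 0.332 in Ctrl. The 4 libraries that were low for Prg4 were low for Slc22a6 too, at 0.489 FPKM or less, while the other 5 were at 1.41 or more. The smallest count was 39, in MPTP 1 (95% Poisson interval 27.7 to 53.3). Slc22a8, which encodes the related transporter OAT3 and ends 6203 bases upstream, was more even, at 3.40 to 6.42 FPKM. Slc22a6 over Slc22a8 was 0.0869, 0.294 and 0.311 in MPTP + MCT-KD, 0.0696, 0.134 and 0.290 in MPTP, and 0.329, 0.335 and 0.0932 in Ctrl, so the pair did not move in proportion.

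Slc6a13 (chr6:121300227-121337733) encodes GAT2, a carrier of GABA and taurine found in the leptomeninges, liver and kidney. It was at 1.58, 4.82 and 5.89 FPKM in MPTP + MCT-KD, 1.51, 1.70 and 4.38 in MPTP, and 5.07, 4.01 and 1.91 in Ctrl. Slc6a12, the betaine and GABA carrier that starts 5342 bases downstream, was at 0.0907, 2.28 and 2.17 FPKM in MPTP + MCT-KD, 0.0464, 0.320 and 1.05 in MPTP, and 1.25, 1.28 and 0.285 in Ctrl. Both carriers were low in the same 4 libraries, and the ratio of Slc6a13 to Slc6a12 ran from 2.11 to 32.5.

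Ptgds (chr2:25466709-25470046, minus strand) encodes lipocalin-type prostaglandin D synthase, made in the brain by the leptomeninges, the choroid plexus and oligodendrocytes. By mean FPKM it ranked 25th of the 14949 genes. Its level was 428, 1162 and 1182 FPKM in MPTP + MCT-KD, 363, 367 and 670 in MPTP, and 1256, 901 and 413 in Ctrl. The values of MPTP + MCT-KD 1, MPTP 1, MPTP 2 and Ctrl 3 lay between 363 and 428 FPKM, and the other 5 lay at 670 or above. Oligodendrocyte genes did not vary as widely: the summed level of 14 of them was 14611 to 16015 CPM in MPTP + MCT-KD, 12236 to 14879 in MPTP and 11598 to 14059 in Ctrl, a 1.38-fold range in all. None of the 14 was at or near 0. In Ctrl 3, where choroid plexus genes were high, Ptgds was among the lowest 4 libraries. The part of each of these cell types in the level of Ptgds was not tested.

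Set on a common scale, the log2 CPM of each gene less its own mean over the 9 libraries, the 8 genes shared a pattern in most libraries. Their average was -0.90, 0.68 and 0.97 in MPTP + MCT-KD 1, 2 and 3, -1.01, -0.82 and 0.28 in MPTP, and 0.70, 0.45 and -0.36 in Ctrl. All 8 were below their own mean in MPTP + MCT-KD 1, MPTP 1 and MPTP 2, and all 8 above it in MPTP + MCT-KD 2, MPTP + MCT-KD 3, Ctrl 1 and Ctrl 2. In MPTP 3, 7 were above and Ptgds was at -0.03. Each group thus held at least 1 low and 1 high library. MPTP + MCT-KD 1 was the lowest of its group for 8 of 8 genes, MPTP 3 the highest of its group for 8 of 8, and Ctrl 3 the lowest of its group for 7 of 8. In bulk tissue, fewer cells of a type and less RNA per cell cannot be told apart.

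**Figure D2:**
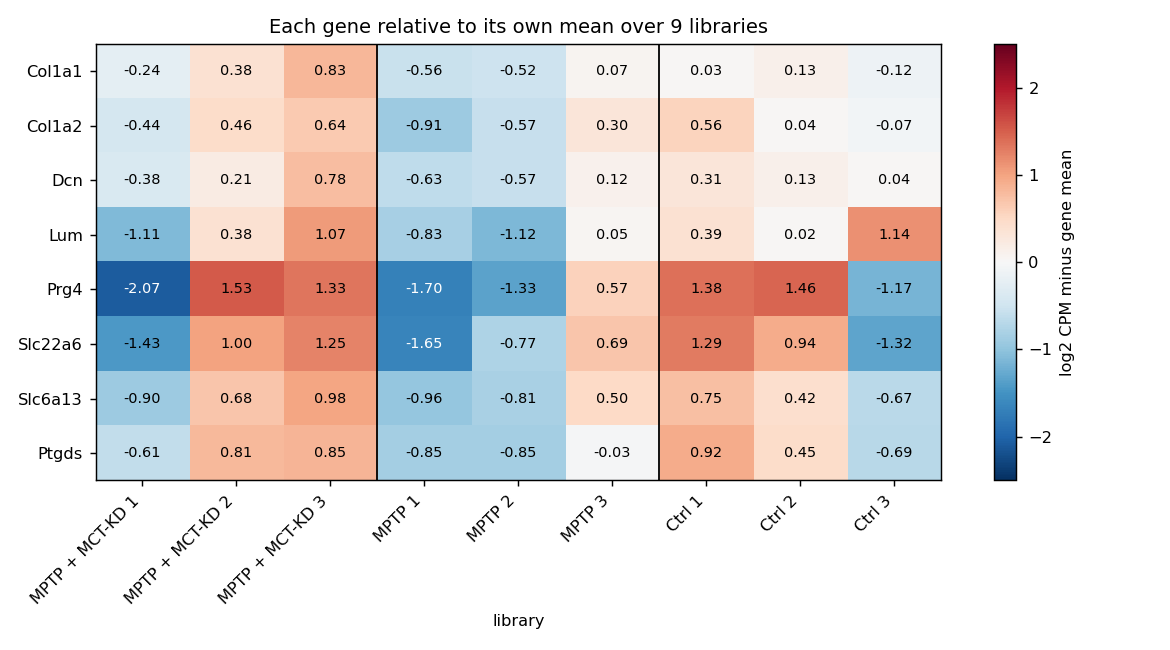
Each of the 8 genes (rows) in the 9 libraries (columns, groups separated by lines), as log2 CPM minus the mean of the gene over all libraries, blue below and red above. In Ctrl 3 the colours split, with Prg4 at -1.17 and Slc22a6 at -1.32 but Lum at 1.14 and Dcn at 0.04.

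Ctrl 3 divided the set. There Slc22a6, Prg4, Slc6a13 and Ptgds were all below their means and averaged -0.96, whereas Dcn, Lum, Col1a1 and Col1a2 averaged 0.25, with 2 below and 2 above. This division was made after the values were seen and has no test. In the 3 other low libraries both subsets were low. The transporter, lubricin and synthase genes averaged -1.25 in MPTP + MCT-KD 1, -1.29 in MPTP 1 and -0.94 in MPTP 2. The collagen and proteoglycan genes averaged -0.54 in MPTP + MCT-KD 1, -0.73 in MPTP 1 and -0.70 in MPTP 2.

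Relative to Dcn, the type I collagen chains were the steadiest. Col1a1 over Dcn ranged 1.37-fold over the 9 libraries (0.145 to 0.198) and Col1a2 over Dcn 1.49-fold (0.321 to 0.477). Slc6a13 over Dcn ranged 2.29-fold and Ptgds over Dcn 2.56-fold, with their lowest values, 0.186 and 40.2, in Ctrl 3. Slc22a6 over Dcn was 0.0323 to 0.170, and Prg4 over Dcn was 0.0190 to 0.255. The members therefore did not rise and fall by a common factor.

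**Figure D3:**
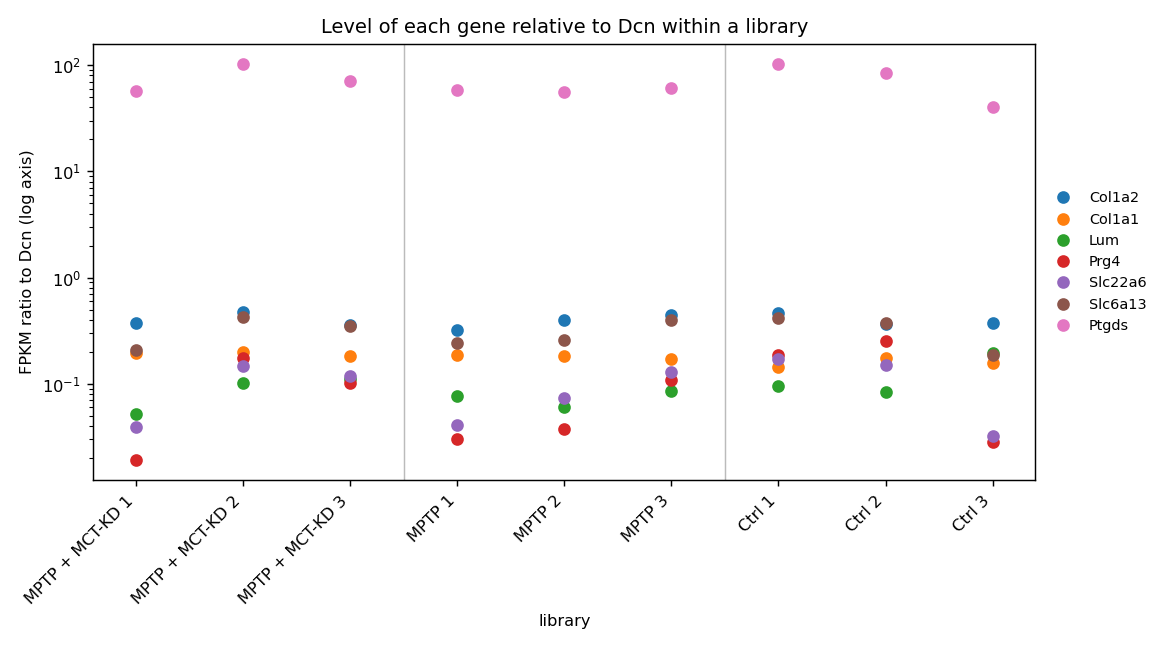
FPKM of 7 genes divided by the FPKM of Dcn in the same library (y axis, log scale) for the 9 libraries (x axis). Col1a1 and Col1a2 lay nearly level, while Prg4 and Slc22a6 were lowest in MPTP + MCT-KD 1, MPTP 1, MPTP 2 and Ctrl 3.

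The spread inside groups was wide for all 8 genes. The SD of log2 CPM within groups was 1.62 for Prg4, 1.36 for Slc22a6, 0.86 for Slc6a13, 0.80 for Lum, 0.73 for Ptgds, 0.53 for Col1a2, 0.42 for Dcn and 0.38 for Col1a1, against a median of 0.123 over all genes tested. Of the 14949 genes, 0.355% had a larger SD than Prg4 and 10.8% a larger one than Col1a1. The genes were picked with this variability known.

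MPTP against Ctrl asked how the toxin altered nigral expression. All 8 genes had lower means in MPTP, and none passed the test. Prg4 averaged 0.548 ± 0.569 FPKM in MPTP and 1.76 ± 1.30 in Ctrl (SD, n = 3 each), a log2 fold change of -1.43 ± 1.15 (SE) with an edgeR adjusted p of 0.946. Lum averaged 0.608 ± 0.298 FPKM in MPTP and 1.36 ± 0.582 in Ctrl, and its log2 fold change was -1.16 ± 0.55. Ptgds averaged 467 ± 176 FPKM in MPTP and 857 ± 423 in Ctrl, and its log2 fold change was -0.89 ± 0.57. For Lum the edgeR adjusted p was 0.904 and for Ptgds 0.922. The other log2 fold changes were -0.93 for Slc22a6, -0.55 for Slc6a13, -0.51 for Col1a2, -0.48 for Dcn and -0.32 for Col1a1, with edgeR adjusted p of 0.922 to 0.965. Their median was -0.72, against -0.00092 for all genes tested.

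With edgeR, 0 of 8 members passed an adjusted p of 0.05, against 0.0134% of all genes (2 genes, both lower), and 0 of 8 had an unadjusted p under 0.05, against 5.36% of all genes. DESeq2 called 0 of 8 (against 0.0938% of all genes) and limma 0 of 8 (against 0%). The libraries of MPTP and Ctrl overlapped for each of the 8, whereas 10.5% of all genes did not overlap (5.14% wholly higher and 5.41% wholly lower in MPTP). Single libraries moved the median of the 8 by over 1.5 times: it was -1.20 without MPTP 3, -0.44 without MPTP 1 and -0.43 without Ctrl 1. Without Ctrl 3 it was -0.82. The log2 fold changes without Ctrl 3 were -0.77 for Lum, -1.90 for Prg4, -1.39 for Slc22a6 and -1.23 for Ptgds. They were -0.87 for Slc6a13, -0.62 for Col1a2, -0.54 for Dcn and -0.39 for Col1a1.

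MPTP + MCT-KD against MPTP asked what the diet altered in mice given the toxin. The 8 means were higher in MPTP + MCT-KD, and again none passed. Col1a1 averaged 2.26 ± 0.812 FPKM in MPTP + MCT-KD and 1.42 ± 0.401 in MPTP (SD, n = 3 each). Its log2 fold change was 0.70 ± 0.26 (SE), with an unadjusted p of 0.0253 and an adjusted p of 0.630 in edgeR. Ptgds averaged 924 ± 430 FPKM in MPTP + MCT-KD and 467 ± 176 in MPTP, and its log2 fold change was 1.01 ± 0.57. The remaining log2 fold changes were 1.38 for Prg4, 0.93 for Lum, 0.92 for Slc22a6, 0.72 for Slc6a13, 0.60 for Dcn and 0.59 for Col1a2. Over the 8 genes the edgeR adjusted p was 0.630 to 0.864. Their median was 0.82, against 0.00056 for all genes tested.

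Here too edgeR called 0 of 8 at an adjusted p of 0.05, against 0% of all genes, with Col1a1 the 1 member of 8 under an unadjusted p of 0.05, against 7.78% of all genes. DESeq2 called 0 of 8 (against 0.127% of all genes) and limma 0 of 8 (against 0%). All 8 genes overlapped between the groups, whereas 13.7% of all genes did not (6.64% wholly higher and 7.1% wholly lower in MPTP + MCT-KD). Without MPTP + MCT-KD 3 the median was 0.39, and without MPTP 3 it was 1.34. This comparison shares the MPTP libraries with the one before it, so a low MPTP mean lowers MPTP against Ctrl and raises MPTP + MCT-KD against MPTP at once.

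MPTP + MCT-KD against Ctrl compared mice given both the toxin and the diet with controls. The means lay close together, with 5 genes higher and 3 lower in MPTP + MCT-KD and a median log2 fold change of 0.10, against -0.0015 for all genes tested. Dcn averaged 11.9 ± 4.66 FPKM in MPTP + MCT-KD and 11.1 ± 1.03 in Ctrl (SD, n = 3 each), and Slc22a6 averaged 1.33 ± 0.907 in MPTP + MCT-KD and 1.34 ± 0.903 in Ctrl. The log2 fold changes ran from -0.23 (Lum) to 0.37 (Col1a1), with edgeR adjusted p of 0.840 to 0.999. EdgeR called 0 of 8 (against 0% of all genes), 0 of 8 had an unadjusted p under 0.05 (against 6.73%), DESeq2 called 0 of 8 (against 0.107%) and limma 0 of 8 (against 0%). The groups overlapped for each of the 8, and 12.7% of all genes did not (6.28% wholly higher and 6.4% wholly lower in MPTP + MCT-KD). The sign of the median rested on single libraries: it was -0.20 without MPTP + MCT-KD 3, -0.034 without MPTP + MCT-KD 2 and -0.084 without Ctrl 3, but 0.46 without MPTP + MCT-KD 1 and 0.35 without Ctrl 1.

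**Figure D4:**
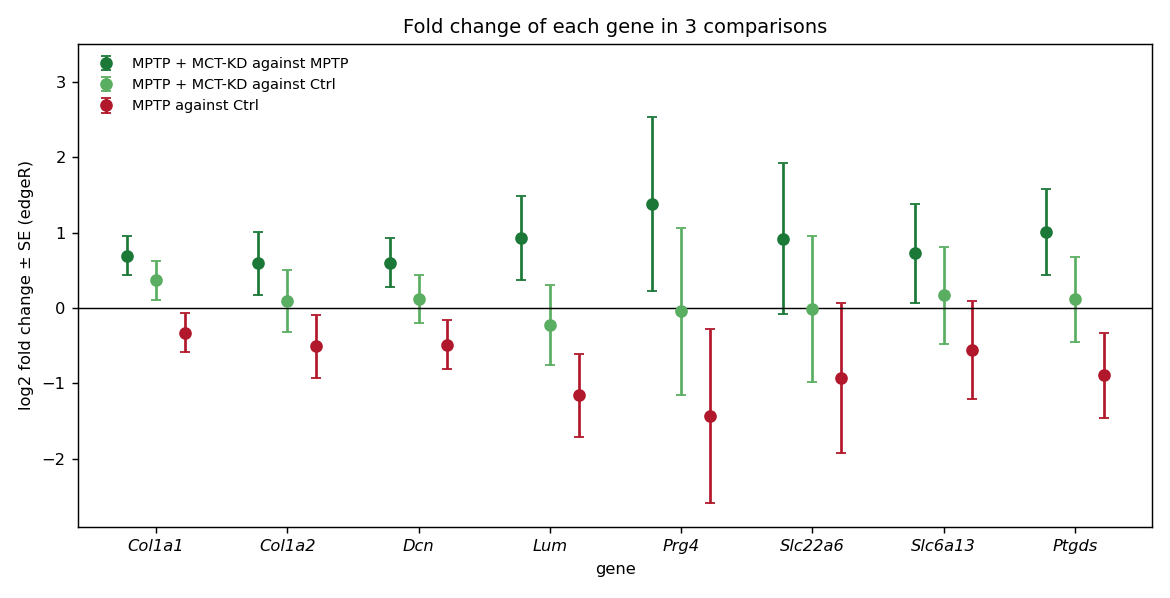
Log2 fold change ± SE from edgeR (y axis) of the 8 genes (x axis) in the 3 comparisons. All 8 points of MPTP + MCT-KD against MPTP lie above 0 and all 8 of MPTP against Ctrl below it, and those comparisons share the MPTP libraries.

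Other genes of the same cells and pathways, and markers of other cells such as oligodendrocytes and dopamine neurons, were read from 17 lists. These lists hold 228 tested genes together with the 8. No gene of any list passed the edgeR test in any comparison; the smallest adjusted p was 0.393. At an unadjusted p under 0.05 there were 14 higher and 13 lower in MPTP + MCT-KD against Ctrl, 7 higher and 22 lower in MPTP against Ctrl, and 25 higher and 12 lower in MPTP + MCT-KD against MPTP. Among all 14949 genes the counts were 503 higher and 503 lower in MPTP + MCT-KD against Ctrl, 400 higher and 402 lower in MPTP against Ctrl, and 562 higher and 601 lower in MPTP + MCT-KD against MPTP. The listed counts pool unlike cells. Oligodendrocyte genes gave 8 higher and 0 lower in MPTP + MCT-KD against Ctrl, and dopamine neuron genes 0 higher and 5 lower in MPTP against Ctrl. Fibroblast identity genes gave 0 higher and 4 lower in MPTP against Ctrl, and 6 higher and 0 lower in MPTP + MCT-KD against MPTP. Limma called no listed gene. DESeq2 called 2 of the 228 in MPTP against Ctrl, where it called 0.0938% of all genes. These were Serpinh1 and P4ha1 of the collagen-processing list, both lower in MPTP. In MPTP + MCT-KD against MPTP DESeq2 called 2, Slc38a2 and Myh11, both higher in MPTP + MCT-KD (against 0.127% of all genes). In MPTP + MCT-KD against Ctrl it called 0 (against 0.107%).

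Beside Dcn and Lum, 12 small leucine-rich proteoglycans were listed and 6 of them tested. In MPTP against Ctrl 1 was higher and 5 were lower (median log2 fold change -0.60, and -0.76 without Ctrl 3), and in MPTP + MCT-KD against MPTP 6 of 6 were higher (median 0.66), with none past the test. Fmod, which encodes fibromodulin, was at 1.54, 7.19 and 7.82 FPKM in MPTP + MCT-KD, 1.22, 1.42 and 5.06 in MPTP, and 9.17, 5.37 and 2.02 in Ctrl. Fmod thus had the same 4 low libraries as Prg4 and Slc22a6. Prelp, the most abundant of the list, had another order, at 6.09, 7.55 and 8.78 FPKM in MPTP + MCT-KD, 4.42, 7.07 and 10.03 in MPTP, and 8.66, 6.13 and 9.79 in Ctrl. Bgn, which encodes biglycan, was at 4.44, 9.94 and 9.41 FPKM in MPTP + MCT-KD, 4.82, 4.11 and 7.04 in MPTP, and 9.69, 8.92 and 7.48 in Ctrl. Its MPTP values all lay below its Ctrl values, with a log2 fold change of -0.72 and an edgeR adjusted p of 0.904. It was the 1 gene of the 6 wholly lower in MPTP, as were 5.41% of all genes tested.

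The list for leptomeningeal fibroblast identity, not all of it specific to these cells, had 41 of 46 genes tested. Of these, 7 were higher and 34 lower in MPTP against Ctrl (median -0.33), 35 higher and 6 lower in MPTP + MCT-KD against MPTP (median 0.39), and 30 higher and 11 lower in MPTP + MCT-KD against Ctrl (median 0.11). Without Ctrl 3 the last comparison had 20 higher and 21 lower, and MPTP against Ctrl had 8 higher and 33 lower (median -0.43). Aldh1a2, which makes retinoic acid in the meninges, was at 1.56, 5.06 and 6.22 FPKM in MPTP + MCT-KD, 1.38, 1.49 and 3.60 in MPTP, and 5.82, 3.74 and 1.88 in Ctrl. Other listed genes are shared with neurons or glia, such as Aldh1a1 and Zic1, and followed other patterns. Aldh1a1, which dopamine neurons express strongly, was at 117 to 140 FPKM in all libraries.

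Of 18 other collagens 15 were tested, and 6 were higher and 9 lower in MPTP against Ctrl (median -0.14), and 7 higher and 8 lower in MPTP + MCT-KD against MPTP (median -0.022). In MPTP + MCT-KD against Ctrl 4 were higher and 11 lower (median -0.11). Without Ctrl 3 there were 5 higher and 10 lower in MPTP against Ctrl (median -0.11). For these collagens MPTP + MCT-KD against Ctrl then had 4 higher and 11 lower (median -0.11). By library, their mean centred level had the sign of the 8 genes in all but Ctrl 3, over a narrower range: -0.27, 0.055 and 0.036 in MPTP + MCT-KD, -0.43, -0.13 and 0.31 in MPTP, and 0.13, 0.033 and 0.27 in Ctrl. In Ctrl 3, 8 of the 15 lay below their own mean, while Col8a1 (5.71 FPKM) and Col8a2 (3.54 FPKM) were far above their other libraries. Col6a1, a chain of microfibrillar collagen, was at 1.03, 2.13 and 3.17 FPKM in MPTP + MCT-KD, 0.738, 0.980 and 2.18 in MPTP, and 1.99, 1.57 and 1.43 in Ctrl. Col4a1 and Col4a2, basement membrane chains that vessels make, were at 6.21 to 7.58 and 7.21 to 10.9 FPKM. Of 26 genes that fold, modify and crosslink collagen 22 were tested. In MPTP against Ctrl 5 were higher and 17 lower (median -0.042), in MPTP + MCT-KD against Ctrl 5 higher and 17 lower (median -0.12), and in MPTP + MCT-KD against MPTP 10 higher and 12 lower (median -0.021). Without Ctrl 3 there were 8 higher and 14 lower in MPTP against Ctrl and 7 higher and 15 lower in MPTP + MCT-KD against Ctrl. The most abundant, Sparc, a collagen-binding glycoprotein that glia also make, was at 451 to 503 FPKM.

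Meningeal barrier transporters were tested for 19 of 23 listed, with 4 higher and 15 lower in MPTP against Ctrl (median -0.27) and 15 higher and 4 lower in MPTP + MCT-KD against MPTP (median 0.32). The most abundant of them, Slc6a11, is a GABA carrier of astrocytes and was at 204 to 238 FPKM. In the pathway of prostaglandin D2 beside Ptgds, 11 of 15 genes were tested. The median log2 fold change was -0.042 in MPTP against Ctrl (4 higher, 7 lower), -0.027 in MPTP + MCT-KD against MPTP (5 higher, 6 lower) and -0.073 in MPTP + MCT-KD against Ctrl (4 higher, 7 lower). Single genes ranged wider in the last comparison, from -0.98 for Ptgr1, a prostaglandin reductase, to 0.51 for Slco2a1, a prostaglandin transporter, neither past the edgeR test (adjusted p = 0.740 for both).

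**Figure D5:**
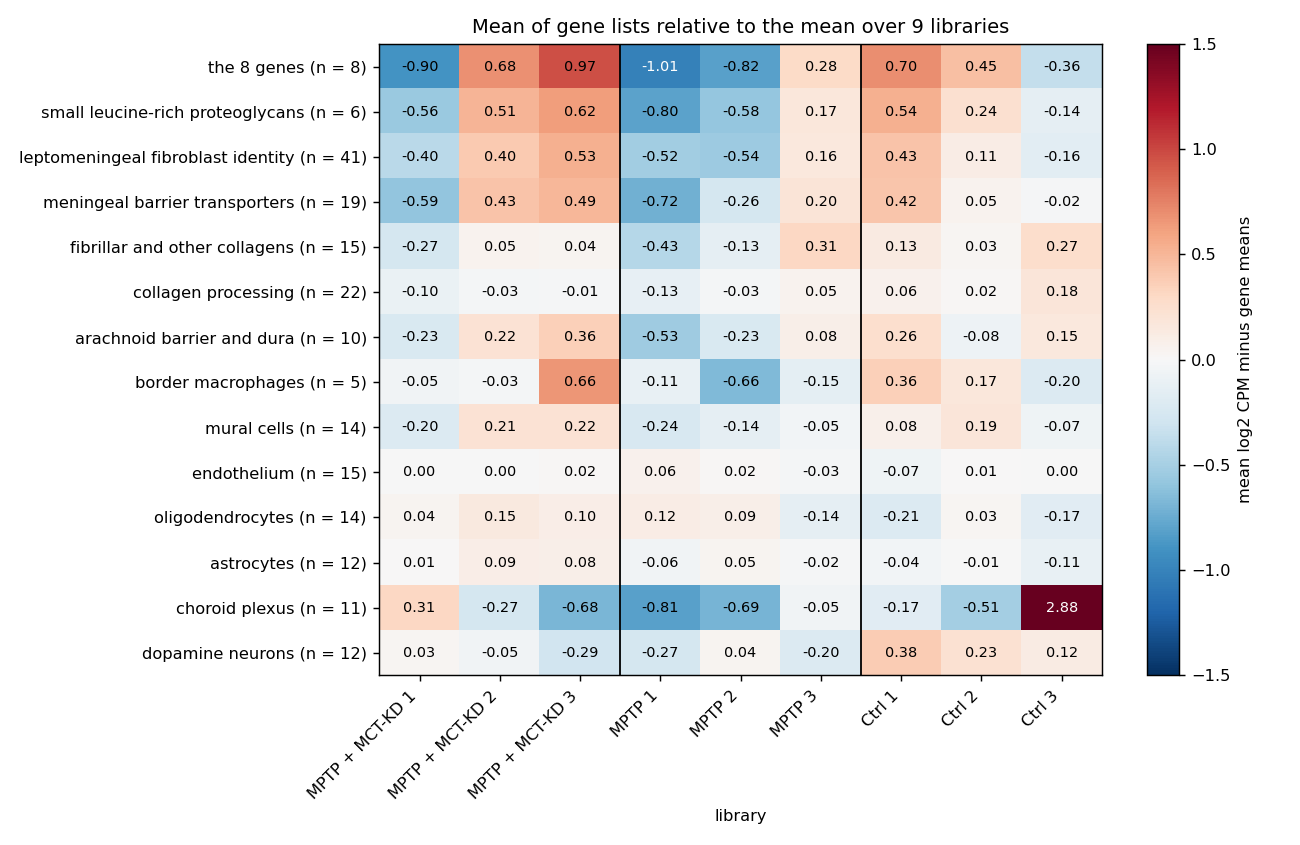
Mean log2 CPM of gene lists (rows, n tested genes each) in the 9 libraries (columns), each gene less its own mean over all libraries. Proteoglycan, fibroblast identity and transporter lists have the sign of the 8 genes in every library. Mural genes have it in all but MPTP 3, and arachnoid and dural genes in all but Ctrl 2 and Ctrl 3. Endothelial genes stay between -0.07 and 0.06, and choroid plexus genes reach 2.88 in Ctrl 3 (beyond the end of the colour scale).

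Markers of other cells that a piece of midbrain surface could hold were read beside these. Endothelial genes, 15 of 15 tested and none near 0, had a mean centred level of -0.0041 to 0.018 in MPTP + MCT-KD, -0.031 to 0.059 in MPTP and -0.065 to 0.0054 in Ctrl. Mural cell genes, 14 of 14 tested, stood at -0.20, 0.21 and 0.22 in MPTP + MCT-KD. They stood at -0.24, -0.14 and -0.046 in MPTP, and at 0.079, 0.19 and -0.068 in Ctrl. Mural genes, and the Schwann cell genes below, thus had the sign of the 8 genes in all libraries but MPTP 3. As means both lists varied less between libraries than the 8 genes, but smooth muscle genes of the mural list varied more widely. Tagln, a smooth muscle actin-binding protein, was at 5.13, 11.1 and 9.15 FPKM in MPTP + MCT-KD, 3.40, 3.77 and 6.09 in MPTP, and 11.2, 10.3 and 6.93 in Ctrl, and it ranked 16th among the genes most like the 8. Tagln, Acta2 and Myh11 had unadjusted edgeR p under 0.05 in MPTP against Ctrl (all lower) and in MPTP + MCT-KD against MPTP (all higher). Their adjusted p was 0.587 to 0.893. At the same unadjusted threshold Abcc9 and Cspg4 were higher in MPTP against Ctrl, where 5.36% of all genes passed it. In MPTP + MCT-KD against MPTP Cnn1 was higher and Notch3 lower, and 7.78% of all genes passed. The median log2 fold change of the 14 was -0.021 in MPTP against Ctrl and -0.020 in MPTP + MCT-KD against MPTP. Schwann cell genes, 4 tested of 8 and Pmp2 listed at 0 throughout, stood at -0.19, 0.24 and 0.29 in MPTP + MCT-KD, -0.42, -0.44 and -0.030 in MPTP, and 0.28, 0.34 and -0.061 in Ctrl. Border macrophage genes, 5 tested of 11, stood at -0.049, -0.033 and 0.66 in MPTP + MCT-KD. They stood at -0.11, -0.66 and -0.15 in MPTP, and at 0.36, 0.17 and -0.20 in Ctrl. Their summed level was 11.1 to 21.9 CPM. Arachnoid and dural genes, 10 tested of 16, stood at -0.23, 0.22 and 0.36 in MPTP + MCT-KD. They stood at -0.53, -0.23 and 0.084 in MPTP, and at 0.26, -0.079 and 0.15 in Ctrl. Gjb6 of this list was also listed for astrocytes and Mgp for fibroblast identity, so the mean is not specific to those layers. Choroid plexus genes, 11 tested of 13, stood at -0.68 to 0.31 in MPTP + MCT-KD, -0.81 to -0.052 in MPTP and, in Ctrl, at 2.88 in Ctrl 3 and -0.51 and -0.17 in the other two. Without Ctrl 3 the median log2 fold change of these 11 genes was -0.088 in MPTP against Ctrl, against -2.24 with it. The part of these cell types in the levels of the 8 genes was not tested.

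The genes most like the set were ranked by the root mean square difference in centred log2 CPM from the average of the 8, over the 9 libraries and 12787 protein-coding genes with a mean of at least 1 FPKM. The 10 nearest were Mgp at 0.15, Aldh1a2 at 0.16, Islr at 0.18, Fgl2 at 0.18, Itih2 at 0.20, Aebp1 at 0.21, Nupr1 at 0.24, Col6a1 at 0.25, Eln at 0.28 and Slc6a20a at 0.28. A gene at the same level in every library would stand at 0.73, and the median gene stood at 0.74. Mgp, which encodes the matrix Gla protein, an inhibitor of calcification, was at 9.49, 35.2 and 34.1 FPKM in MPTP + MCT-KD, 8.11, 8.99 and 25.2 in MPTP, and 35.3, 26.9 and 14.9 in Ctrl. Of the 10, Mgp, Aldh1a2, Islr, Itih2 and Nupr1 were in the list of fibroblast identity genes, Col6a1 in the collagens and Slc6a20a in the transporters. Mgp was also in the list of arachnoid and dural genes, and Fgl2, Aebp1 and Eln were in none. The lists were chosen with earlier results of these data known, so this overlap is no independent support. All these values come from the same 9 libraries, so likeness here describes a shared pattern and has no p.

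Among the members, Dcn and Col1a1 were the closest pair (0.13), followed by Dcn and Col1a2 (0.17) and by Slc6a13 and Ptgds (0.22). Slc22a6 and Prg4, the most variable, stood 0.39 apart. The member nearest to Lum was Dcn at 0.50, and the value of Lum in Ctrl 3 set it apart from all 7 others.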

How the data were processed

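RNA-seq was read from 1 table of 9 libraries, for which the authors deposited raw counts and FPKM per gene, per the file headers. Reads were placed on mm10 (GRCm38) according to the submitters' processing notes. The sources used here do not name the aligner, the counter, its strand setting or the annotation. The 8 members, the gene lists and the tests were chosen with earlier results of these data known. Libraries were grouped by their labels. Every pair of libraries within a group differed beyond sampling noise (lowest chi-square per degree of freedom 10.5), and 10 lines that named no gene were left out.

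Counts were tested with edgeR 4.0.16 in R 4.3.3 (quasi-likelihood, robust, TMM scaling with factors of 0.983 to 1.02), all 9 libraries in 1 model, over the 14949 genes whose FPKM averaged 0.5 or more. P-values were adjusted by Benjamini-Hochberg over all of them, with a threshold of 0.05. The common coefficient of biological variation was 0.134. Adjusted p-values in the text are from edgeR unless DESeq2 or limma is named. Log2 CPM used a prior count of 2. Alternatives were DESeq2 1.42.0, limma 3.58.1 on log2 FPKM with a pseudocount of 0.1 or 1, other scalings and filters, a fit of only the groups compared, a replicate block and each library left out. The procedure was checked on simulated counts. Coordinates are those of GENCODE M21 on GRCm38.

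Pairing by replicate number was judged from the data, since the labels give no shared animal or day: deviations from group means were correlated between libraries of the same number. Between MPTP + MCT-KD and MPTP the correlation was 0.107 to 0.182 for the 3 pairs, above the minimum of 0.1, while differently numbered libraries of different groups reached 0.186. The block changed no call of a member. Named were the 8 members, their neighbours of the same family, the genes of each list past the threshold or else up to 4 of highest mean FPKM, the 10 genes most like the members, Th, Slc6a3 and Ttr. Tpr, as the overlapping gene, and Aldh1a2 in its list were added after their values were seen. So were Tagln, Acta2, Myh11, Abcc9, Cspg4, Cnn1, Notch3, Ptgr1, Slco2a1 and the listed genes that DESeq2 called.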

Additional observations from a re-analysis of the deposited data

How the results depend on the processing

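No member was called in any comparison under any of the 19 other settings run. In MPTP against Ctrl and in MPTP + MCT-KD against MPTP the 8 members kept their direction throughout. With a pseudocount of 1 in limma, their medians were -0.45 in MPTP against Ctrl and 0.48 in MPTP + MCT-KD against MPTP, a scale that shrinks the change of low genes.

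In MPTP + MCT-KD against Ctrl the direction rested on single libraries for 7 members. With each library left out in turn the log2 fold change ran from -0.13 to 0.35 for Col1a2, -0.22 to 0.36 for Dcn, -0.78 to 0.18 for Lum, -0.51 to 0.48 for Prg4, -0.22 to 0.50 for Ptgds, -0.47 to 0.46 for Slc22a6 and -0.19 to 0.55 for Slc6a13. With the replicate block Slc6a13 stood at -0.034 in that comparison.

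Counts of genes called among all genes moved with the tool. In MPTP against Ctrl, DESeq2 called 3 higher and 11 lower, total count scaling 1 lower, limma with either pseudocount and edgeR without robust moderation 0 lower, and leaving out libraries 0 to 4 lower. In MPTP + MCT-KD against Ctrl, DESeq2 called 9 higher and 7 lower, the fit of only those groups 2 higher and 2 lower, the replicate block 2 higher and 3 lower, no filter on low values 1 lower, and leaving out libraries 0 to 2 in each direction. In MPTP + MCT-KD against MPTP, DESeq2 called 11 higher and 8 lower, and leaving out libraries 0 to 1 higher. The causes were not tested. Where a library is left out, its group has 2 and the spread is shared with the other groups.

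Taken from counts in place of FPKM, the range of Prg4 over Dcn from its lowest to its highest library was 8.82-fold, and that range moved by less than 1.5 times for the other ratios. The ratios themselves take other values in counts, which are not per length. With a mean FPKM of at least 0.5, 9 of the 10 genes most like the members were shared. Prg4, Slc22a6 and Lum had the lowest counts, so counting error limits them most.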

Other observations

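Ctrl 3 also differed from the other libraries in 2 genes of the collagen list, picked after their values were seen. Both count in the list mean and in the comparisons of that list given above. Col8a1, a short-chain collagen of basement membranes, was at 5.71 FPKM in Ctrl 3 and at 0.62 to 1.23 FPKM in the other libraries. Col8a2, its partner chain, was at 3.54 FPKM in Ctrl 3 and at 0.46 to 1.75 FPKM elsewhere.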
